A study of Mus musculus with 28 samples.

Results

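MN1 cells were cultured, transfected and profiled on 2 occasions, and the 6 libraries of replicate 1 were compared with the 6 libraries of replicate 2. Members were chosen by the replicate number and date in the sample titles, which took 12 of the 28 libraries of the series; the 16 others come from cortical neurons. MN1 is a clonal mouse line made by fusing spinal motor neurons with neuroblastoma cells. Each replicate held 1 culture transiently transfected with GFP, 1 with V5-tagged human TDP-43 (hTDP-43) and 1 with the V5-tagged disease mutant hTDP-43 A315T, and each culture gave 1 total mRNA library and 1 library of ribosome footprints. The titles date replicate 1 to 17 April and replicate 2 to 22 May, apart from 1 GFP footprint title of replicate 1 that carries another year. All cultures were treated with cycloheximide before lysis, total mRNA was selected by its poly(A) tail and fragmented, and footprints are the mRNA pieces that ribosomes protected from RNase I. Column headers place all libraries of replicate 1 in one sequencing lane and all those of replicate 2 in another. Date, culture, transfection, library preparation and lane therefore cannot be told apart, and each replicate stands for 1 occasion. In such bulk libraries, fewer cells in a state and less RNA per cell cannot be told apart either.

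The question is which genes and functions differ between occasions, whatever the construct. Ribosome profiling sets the footprints on an mRNA against the amount of that mRNA, and their ratio is called the translational efficiency. In a dividing line, several programmes are known to vary between cultures. Interferon signalling acts through STAT and IRF transcription factors on a shared promoter element. The genes of mitosis are transcribed in waves of the cell cycle. Ribosome assembly in the nucleolus, lysosomes and stress responses follow growth and nutrients.

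The total mRNA libraries held 1328528 to 2988339 reads on genes and the footprint libraries 332370 to 1219222. Levels of single genes are given in TMM-scaled CPM, which express a gene's reads relative to the size of its library. Before that scaling, 3 counts correspond to 1.00 to 2.26 CPM in total mRNA and 2.46 to 9.03 CPM in footprints. Levels below that were not measurable. Sums and averages of cell type markers are in CPM before that scaling too. The endogenous mouse Tardbp gene, to which reads of the human transgene can partly align, had 307, 514 and 485 CPM of total mRNA in replicate 1 and 266, 431 and 447 CPM in replicate 2, always in the order GFP, hTDP-43, hTDP-43 A315T. Both replicates were thus lowest with GFP, and the replicates did not differ past the threshold (adjusted p = 0.0808). The 10 markers of neurons and neuroblastoma summed to 1401 to 1480 CPM in replicate 1 and 1643 to 1772 CPM in replicate 2 of total mRNA. The 8 motor neuron markers summed to 70.4 to 93.6 CPM and 84.3 to 97.9 CPM, and only 2 of the 8 exceeded 10 CPM on average. Markers of fibroblasts (6), astrocytes (4), oligodendrocytes and Schwann cells (5), macrophages (5) and endothelium (3) summed to at most 16.3 CPM in any total mRNA library, and Lum, Aldh1l1, Mog and Csf1r were at 0 in all of them. The macrophage markers summed to 6.36 to 8.14 CPM of total mRNA in replicate 1 and 1.51 to 4.71 CPM in replicate 2. Endothelial markers summed to 11.7 to 26.2 and 23.6 to 51.7 CPM of footprints, where Kdr was called higher (log2 difference 1.29 ± 0.35, adjusted p = 0.0426 in edgeR). The call was lost without the GFP (adjusted p = 0.103), the hTDP-43 (0.0926) or the hTDP-43 A315T libraries (0.15), without a construct term and in DESeq2. The part of these markers in the results was not tested.

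In total mRNA, 660 genes were higher and 876 lower in replicate 2, which is 6.42% and 8.52% of the 10277 genes tested. A gene is called where its adjusted p is below 0.05 in edgeR's quasi-likelihood test with the construct as covariate and Benjamini-Hochberg adjustment. Of the 1536 called genes, 1514 differed in the same direction with all 3 constructs, and in 1250 (81.4%) the replicates did not overlap, against 27.6% of all genes tested. The median size of a called difference was 0.52 on the log2 scale, and 158 genes (88 higher, 70 lower) differed at least 2-fold. In footprints, 225 genes were higher and 179 lower, which is 2.64% and 2.1% of 8535. Here 397 of the 404 called genes kept 1 direction with all 3 constructs, and 130 (84 higher, 46 lower) differed at least 2-fold. The total mRNA calls rest on the GFP cultures more than on the others, since 391 were past the threshold without the GFP libraries, 748 without the hTDP-43 libraries and 2145 without the hTDP-43 A315T libraries. DESeq2 called 246 genes in total mRNA, all among the 1536, and 62 in footprints.

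Of the variance in log2 CPM, 40.9% among total mRNA libraries and 36.9% among footprint libraries lay between the replicates, with 1 degree of freedom. Construct, with 2 degrees of freedom, accounted for 34.7% and 32.7%, and the residual, also with 2, for 24.4% and 30.4%. The fits that compared replicates also tested the constructs. There 96 genes (0.934% of those tested) differed between constructs in total mRNA and 35 (0.41%) in footprints. Without the replicate number as a block, 2 genes passed in total mRNA and 0 in footprints (139 of 8535 at an unadjusted p below 0.05 in edgeR).

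Total mRNA and footprints come from the same cultures, and most called differences had the same sign in both. Among 8452 genes tested in both, the log2 differences correlated across genes with Pearson's r of 0.45 and Spearman's rho of 0.42, as a description only, since genes are not independent replicates. Of the 211 genes called in both (14.9% of the total mRNA calls and 57.3% of the footprint calls in this set), 117 were higher in both, 85 lower in both and 9 opposite. Of all total mRNA calls, 85.7% had the same sign in footprints, against 64.5% of all genes in the set.

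**Figure D1:**
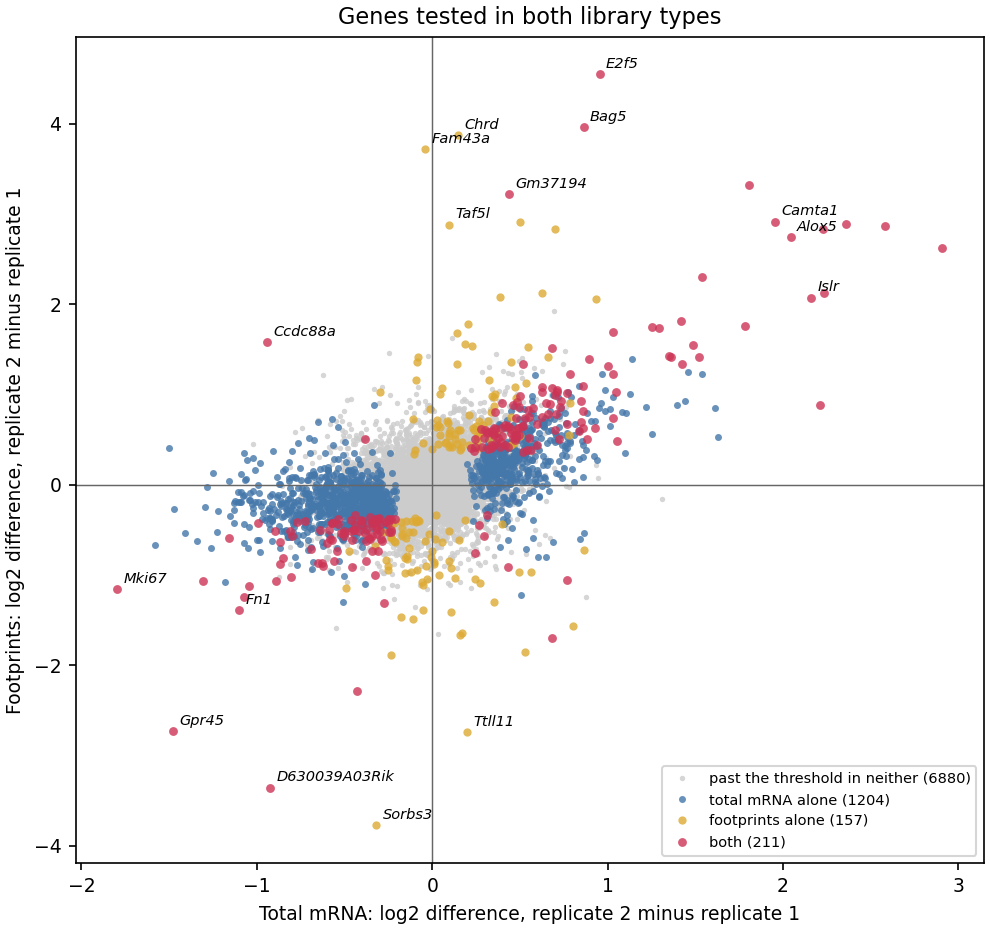
Each point is 1 of 8452 genes, placed by its log2 difference (replicate 2 minus replicate 1) in total mRNA (horizontal) and in footprints (vertical), and coloured by the library type in which it passed the threshold. The 211 genes past it in both lie mostly along the rising diagonal, whereas E2f5, Bag5, Fam43a and Taf5l stand high on the footprint axis with log2 differences of total mRNA of at most 0.95. Chrd, also labelled there, had 10, 3 and 6 footprint reads in replicate 1 and passed the low-count filter in footprints only through replicate 2, where it was high.

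The differences in total mRNA moved with base composition and length. Transcripts called higher in replicate 2 had a median GC content of 55.3% and a median exon length of 3573 bases, those called lower had 44.1% and 6126 bases, and all tested genes 50.1% and 4067 bases. From the lowest to the highest of 5 equal groups of genes ordered by GC content, the median log2 difference went from -0.24 to 0.15 in total mRNA and from -0.03 to 0.06 in footprints. The GC content of the average read, weighted by gene counts, was 50.7%, 50.8% and 51.5% in replicate 1 and 51.4%, 51.6% and 51.7% in replicate 2. Thus the hTDP-43 A315T library of replicate 1 lay inside the range of replicate 2, and for several genes described here it was also the library of replicate 1 nearest to replicate 2. A fit with the trend in GC and length removed, added after seeing the data, called 597 genes higher (5.81%) and 823 lower (8.01%) in total mRNA, of which 964 were also called without that step. In footprints it called 161 (1.89%) and 138 (1.62%), 268 of them shared. Counts from this fit are given beside most groups of genes, and the part of composition and length in the results beyond them was not tested.

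**Figure D2:**
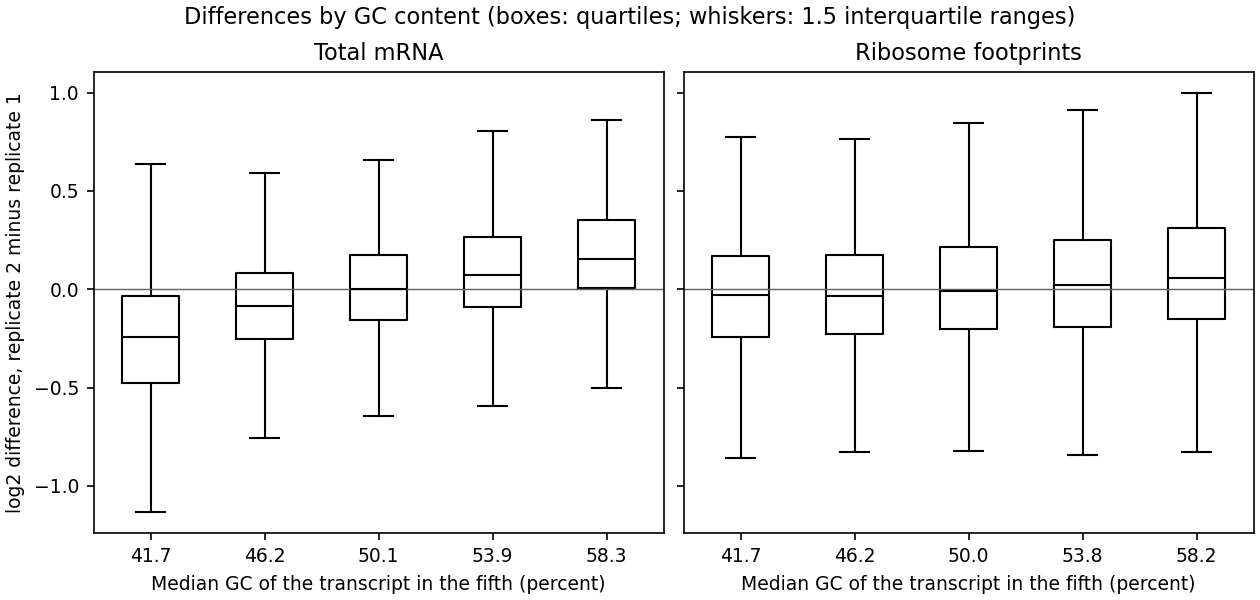
Boxes show the quartiles of the log2 difference (vertical axis, replicate 2 minus replicate 1) in 5 equal groups of genes ordered by the GC content of their exons (horizontal axis, median percent), with whiskers of 1.5 interquartile ranges. In total mRNA the median went from -0.24 to 0.15, and in footprints from -0.03 to 0.06.

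Interferon-stimulated genes had the highest median of the lists with at least 5 tested genes, in both library types. In total mRNA 20 of the 25 tested were higher in replicate 2, against 6.42% of all genes, and the other 5 did not pass the threshold. The median log2 difference was 0.70, against -0.01 for all genes. In footprints 13 of 22 were higher, against 2.64% of all genes, with a median of 0.89. These counts and medians include genes that passed the low-count filter only through replicate 2, where they were high. Among them are Irf7 in both library types, Mx2 in total mRNA and Xaf1 in footprints. A gene that enters in this way can only be called higher. In the fit with the GC and length trend removed, 18 and 12 were higher. The count in total mRNA was 10 without the GFP libraries, 17 and 19 without those of the other constructs, and DESeq2 called 7 in total mRNA and 2 in footprints.

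Irf9, a DNA-binding transcription factor of interferon signalling, had 13.6, 12.8 and 12.0 CPM of total mRNA in replicate 1 and 34.0, 39.1 and 34.8 CPM in replicate 2. The replicates did not overlap, and the log2 difference was 1.49 ± 0.20 (SE; adjusted p = 0.000113) in total mRNA and 1.55 ± 0.37 (adjusted p = 0.0183) in footprints. Ifi27, a small interferon-induced membrane protein, had 60.3, 58.3 and 65.3 CPM of footprints in replicate 1 and 142, 151 and 199 CPM in replicate 2, a log2 difference of 1.42 ± 0.14 (adjusted p = 3.42e-06) beside 1.36 ± 0.13 in total mRNA. Irf7, which amplifies the interferon response, was near the detection floor in replicate 1 of total mRNA (0.682, 2.91 and 4.13 CPM) and reached 11.2, 8.27 and 10.2 CPM in replicate 2. The antiviral genes Oasl1, at 21.8, 22.7 and 27.2 against 62.4, 57.2 and 69.5 CPM, and Xaf1, at 4.77, 6.98 and 5.85 against 21.5, 18.8 and 10.2 CPM, were also apart between replicates. Mx2, annotated as a polymorphic pseudogene, had 1.03 to 1.36 CPM of total mRNA in replicate 1, which is within 3 counts per library, and 6.95 to 11.3 CPM in replicate 2. In total mRNA, Irf7 and Mx2 passed the low-count filter only through replicate 2, where they were high. In footprints Irf7 and Xaf1 did so. These test values are therefore not given. Without the GFP libraries the adjusted p was 0.103 for Xaf1 in total mRNA and 0.124 for Irf9 in footprints, where it was 0.0801 without the hTDP-43 A315T libraries.

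The difference extended to effectors and antigen presentation. In total mRNA the log2 difference was 1.03 for Isg15, a ubiquitin-like modifier, 1.42 for its protease Usp18, and 1.13 and 1.44 for Ddx58 and Dhx58, which sense viral RNA. The membrane-restricting factors Bst2 and Ifitm3 differed by 0.73 and 0.67. The class I chains H2-K1 and H2-D1 were higher by smaller amounts, 0.34 and 0.36 in total mRNA and 0.60 and 0.81 in footprints. All of these passed the threshold. B2m, the light chain of class I molecules, was called in footprints (0.55) and not in total mRNA (0.26; adjusted p = 0.0995). Outside the list, the galectin Lgals9 had 21.5, 18.9 and 15.9 CPM of footprints in replicate 1 and 54.3, 52.5 and 80.7 CPM in replicate 2 (adjusted p = 0.000318).

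The promoters of these genes are shown because interferon acts through a short element in them, the interferon-stimulated response element. It was searched on both strands as GAAA followed, after a gap of any 2 bases, by GAAA again. RefSeq windows from 250 bases before to 50 after the start site (GRCm38.p6) were found for 27 of the 34 listed genes. Of the 27 genes, 14 held these letters, against 3.44% of all 32851 windows and 3.34% of the tested genes with a window. Among genes called higher in total mRNA, 6 of 16 with a window held it, and among tested genes that were not called, 2 of 3. A match is only a run of letters and no evidence of binding. For 4 called genes, 30 bases around a match are printed 5′ to 3′ on the strand of the gene, with the matching letters in capitals.
Isg15, chr4:156200871-156200900, minus strand: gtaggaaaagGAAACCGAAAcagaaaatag
Bst2, chr8:71537577-71537606, minus strand: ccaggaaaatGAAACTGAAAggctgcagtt
Cxcl10, chr5:92349083-92349112, minus strand: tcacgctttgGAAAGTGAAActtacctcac
Stat2, chr10:128270266-128270295, plus strand: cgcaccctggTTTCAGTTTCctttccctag

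**Figure D3:**
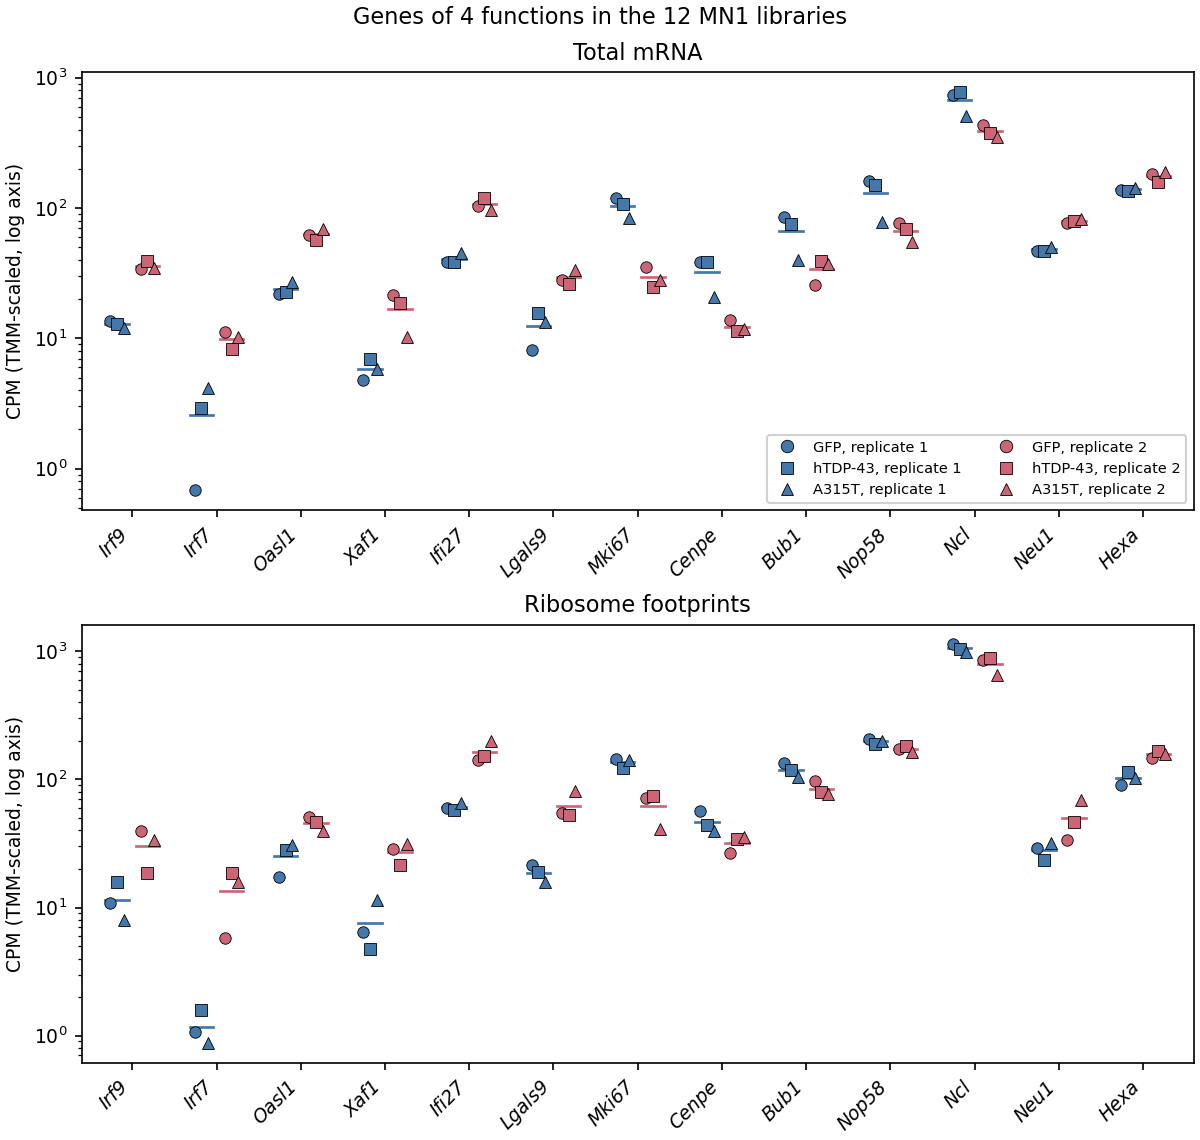
CPM of 13 genes (vertical, log axis) in the 12 libraries, total mRNA above and footprints below; blue marks replicate 1, red replicate 2, symbols the construct, and bars the mean of 3 libraries. Irf9, Irf7, Oasl1, Xaf1, Ifi27 and Lgals9 are higher in replicate 2 in both panels without overlap, and Mki67, Cenpe and Bub1 lie lower, by more in total mRNA than in footprints. Irf7 in both panels and Xaf1 in footprints passed the low-count filter only through replicate 2, where they were high. In footprints Irf7 had 1 read in each library of replicate 1, which is below the detection floor.

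Genes of G2 and mitosis were lower in replicate 2. In total mRNA 17 of 30 were lower, against 8.52% of all genes, with a median log2 difference of -0.39, and 15 were lower with the GC and length trend removed. In footprints 4 of 30 were lower (Mki67, Kif23, Top2a and Tpx2), against 2.1% of all genes, with a median of -0.24. The total mRNA count fell to 6 without the GFP libraries and 11 without the hTDP-43 libraries, was 19 without the hTDP-43 A315T libraries, and DESeq2 called 7. Mki67, which coats mitotic chromosomes and marks dividing cells, had 120.0, 108 and 83.6 CPM of total mRNA in replicate 1 and 35.3, 24.8 and 27.8 CPM in replicate 2. Of the named genes it had the largest reduction in total mRNA (-1.80 ± 0.14; adjusted p = 2.12e-07), and its footprints were lower as well (-1.16 ± 0.17; adjusted p = 0.000343).

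The centromere motor Cenpe had 38.2, 38.4 and 20.6 CPM of total mRNA in replicate 1 and 13.8, 11.3 and 11.8 CPM in replicate 2 (-1.34 ± 0.22; adjusted p = 0.000653). Cenpf, which links kinetochores to microtubules, was lower in total mRNA (-1.09 ± 0.15; adjusted p = 0.000226) while its footprints were at 119, 121 and 116 CPM and 128, 121 and 88.5 CPM, with overlap. Its translational efficiency was accordingly higher by 0.97 ± 0.22 (adjusted p = 0.0184), which did not pass without the GFP libraries (adjusted p = 0.203) or without the hTDP-43 libraries (0.174). For the checkpoint kinase Bub1, which had 84.5, 75.0 and 40.2 CPM in replicate 1 and 25.8, 39.1 and 37.4 CPM in replicate 2, the hTDP-43 A315T library of replicate 1 lay just above the highest library of replicate 2. Further long mitotic genes outside the list, Knl1 and Kif15, were lower in total mRNA, at log2 differences of -1.22 ± 0.23 and -1.13 ± 0.23, and neither was called in footprints. Leaving out the GFP libraries gave an adjusted p of 0.198 for Bub1 and of 0.07 for Kif15.

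Of 30 genes of S phase, 8 were lower in total mRNA (median -0.17) and 3 in footprints (median -0.22), against 8.52% and 2.1% of all genes. The count in total mRNA was 10 with the GC and length trend removed, 3 without the GFP libraries, 3 without the hTDP-43 libraries and 2 in DESeq2. Mcm3, a subunit of the replicative helicase, was lower in both library types, with 385, 411 and 405 CPM of total mRNA in replicate 1 and 326, 279 and 305 CPM in replicate 2 (-0.40 ± 0.08; adjusted p = 0.00226). E2f8, a repressor of E2F targets, was lower in footprints alone (-0.82 ± 0.20; adjusted p = 0.0195). A pair of brakes on growth that p53 can induce were higher. Cdkn1a, the cyclin-dependent kinase inhibitor p21, had 64.8, 51.2 and 59.1 CPM of total mRNA in replicate 1 and 90.8, 94.0 and 93.1 CPM in replicate 2 (0.66 ± 0.12; adjusted p = 0.00131). Bbc3, the pro-apoptotic protein PUMA, had 19.8, 20.9 and 23.4 and 38.3, 40.6 and 49.2 CPM (1.00 ± 0.17; adjusted p = 0.000712), and both genes were higher in footprints too. Of the 14 p53 targets tested in total mRNA only 1 other passed, Aen, which was lower (-0.39 ± 0.09; adjusted p = 0.0102). The footprint calls of Bbc3, Cdkn1a and Mcm3 were lost without the GFP libraries (adjusted p = 0.0556, 0.0923 and 0.118), that of Mcm3 also without the hTDP-43 A315T libraries (0.118), that of E2f8 without the hTDP-43 (0.0507) or the hTDP-43 A315T libraries (0.0821), and the total mRNA call of Aen without the hTDP-43 libraries (0.0651).

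The promoter windows of mitotic genes are shown for their shared cell cycle homology region, TTTGAA, searched on both strands. It was present in 19 of the 25 listed genes with a window, against 17.9% of all windows and 13.4% of the tested genes with a window. It was present in 13 of the 15 called genes and in 6 of the 10 that were not called. The following stretches are printed as above.
Mki67, chr7:135716460-135716489, minus strand: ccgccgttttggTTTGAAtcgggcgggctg
Cenpf, chr1:189688067-189688096, minus strand: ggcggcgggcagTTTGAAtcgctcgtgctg
Kif23, chr9:61946780-61946809, minus strand: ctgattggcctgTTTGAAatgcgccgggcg

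Replication-dependent histone genes, whose mRNAs are made in S phase and end in a stem-loop in place of a poly(A) tail, were higher in replicate 2, unlike the S-phase enzymes. In footprints, which were not selected by poly(A), 11 of 24 were higher, against 2.64% of all genes, with a median of 0.41. In total mRNA, which was so selected, 6 of 24 were higher, against 6.42% of all genes, with a median of 0.46. Hist1h2bb had 335, 332 and 311 CPM of footprints in replicate 1 and 462, 621 and 571 CPM in replicate 2 (0.74 ± 0.11; adjusted p = 0.000247). Hist1h2ac had 113, 115 and 101 CPM and 202, 253 and 175 CPM (0.91 ± 0.12; adjusted p = 9.51e-05). Once the GC and length trend was removed, 3 were called in footprints and 6 in total mRNA. DESeq2 called 0 of them in either library type, whereas edgeR gave an unadjusted p below 0.05 for 18 in footprints and 11 in total mRNA, all higher. Over all genes, 842 of 8535 in footprints and 1370 of 10277 in total mRNA were higher at that level. When the GFP libraries were left out, 6 were called in footprints and 0 in total mRNA. Near-identical histone copies share reads, so counts of single members are uncertain.

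Genes of ribosome assembly were lower in replicate 2. In total mRNA 17 of 27 were lower, against 8.52% of all genes, with a median of -0.33, and 21 with the GC and length trend removed. In footprints 6 were lower, against 2.1% of all genes, with a median of -0.28. That count was 3 with the trend removed, 3 without the GFP libraries, 4 without the hTDP-43 A315T libraries and 0 in DESeq2. At an unadjusted p below 0.05 in edgeR 14 were lower, against 736 of 8535 over all genes. The count in total mRNA was 8 without the GFP libraries, 11 without the hTDP-43 libraries and 7 in DESeq2. Ncl, the nucleolar protein nucleolin, had 736, 774 and 503 CPM of total mRNA in replicate 1 and 429.9, 378 and 351 CPM in replicate 2. The replicates were apart (-0.77 ± 0.08; adjusted p = 1.44e-05), and footprints were lower by less (-0.42 ± 0.10; adjusted p = 0.0184). Nop58, a core protein of the box C/D particles that methylate ribosomal RNA, had 160.2, 149 and 78.8 CPM of total mRNA in replicate 1 and 76.2, 69.2 and 54.6 CPM in replicate 2 (-0.92 ± 0.12; adjusted p = 0.00011). Its footprints were at 207, 189 and 199 and 173, 182 and 165 CPM (-0.21 ± 0.11; adjusted p = 0.318). Also lower in total mRNA were the GTPase Gnl3, at a log2 difference of -0.67 ± 0.11, the pseudouridine synthase Dkc1, at -0.66 ± 0.14, and the RNA polymerase I subunits Polr1a and Polr1b, at -0.44 and -0.35. The footprint call of Ncl was lost without the GFP libraries (adjusted p = 0.0818), without the hTDP-43 A315T libraries (0.187) and with the trend removed (0.0879), and the call of Dkc1 without the GFP (0.0832) or the hTDP-43 libraries (0.0549).

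Splicing factors of the hnRNP and SR families, the class of RNA-binding proteins to which TDP-43 belongs, were lower in total mRNA in 21 of 34 cases, with a median of -0.33. In footprints 2 of 34 were lower (Hnrnpm and Ewsr1), with a median of -0.19. Over all genes, 8.52% were lower in total mRNA and 2.1% in footprints. This list was among those that moved with GC content, since its members have a median GC content of 42.9%, and 15 of them were lower once the trend was removed. Leaving out the GFP libraries gave 9, leaving out the hTDP-43 A315T libraries 27, and DESeq2 called 8. Hnrnpdl had 179, 187 and 142 CPM of total mRNA in replicate 1 and 128, 117 and 95.7 CPM in replicate 2 (-0.57 ± 0.09; adjusted p = 0.000514). Srsf10 had 177, 151 and 85.6 and 96.8, 77.5 and 76.5 CPM (-0.67 ± 0.13; adjusted p = 0.00215), with the hTDP-43 A315T library of replicate 1 inside the range of replicate 2, and without the GFP libraries its adjusted p was 0.0637. Ewsr1 and Taf15, which share a family of RNA-binding proteins, were lower, at -0.40 and -0.58 ± 0.11.

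Cytosolic ribosomal proteins, the products that assembly factors act on, had few calls in total mRNA and were more often lower than higher in footprints. Of 68 tested, 3 were higher and 2 lower in total mRNA (median -0.00), and 1 was higher and 5 lower in footprints (median -0.09). Over all genes the shares were 6.42% and 8.52% in total mRNA and 2.64% and 2.1% in footprints. At an unadjusted p below 0.05 in edgeR, 2 were higher and 18 lower in footprints, against 842 and 736 of 8535 over all genes. With the GC and length trend removed, 12 were lower in total mRNA and 7 in footprints, against 8.01% and 1.62% of all genes. In that fit 3 were higher in total mRNA and 0 in footprints. Between 1 and 4 were lower in footprints when single constructs were left out, and 0 in DESeq2. Leaving out single constructs moved the number called higher in total mRNA between 0 and 14 and the number called lower between 1 and 8. Rplp0, a protein of the ribosomal stalk, differed in opposite directions, with 732, 719 and 766 CPM of total mRNA in replicate 1 and 892, 937 and 845 CPM in replicate 2 but 440.2, 504 and 463 CPM and 361, 352 and 313 CPM of footprints. Both differences passed the threshold (0.27 ± 0.07 and -0.45 ± 0.10). The first did not pass without the GFP (adjusted p = 0.157) or the hTDP-43 libraries (0.124), nor the second without the hTDP-43 A315T libraries (0.0889). Many ribosomal proteins have processed pseudogenes that share their reads, so these counts are uncertain.

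Translation factors were lower in 9 of 37 cases in total mRNA (median -0.10) and in 8 of 37 in footprints (median -0.14), and 1 was higher in each. Over all genes, 8.52% were lower in total mRNA and 2.1% in footprints. Both counts of lower factors were smaller without the GFP libraries (3 and 2), and footprints had 4 lower with the trend removed and 2 without the hTDP-43 A315T libraries. Eif3a, the largest subunit of initiation factor eIF3, had 483, 496 and 306 CPM of total mRNA in replicate 1 and 221, 205 and 203 CPM in replicate 2 (-0.99 ± 0.10; adjusted p = 7.09e-06), and its footprints differed by -0.42 ± 0.11, a call that was lost without the GFP (adjusted p = 0.0751) or the hTDP-43 A315T libraries (0.319) and with the trend removed (0.06). Pabpc1, the poly(A)-binding protein, was called in footprints (-0.55 ± 0.10; adjusted p = 0.00168), where it had 594, 589 and 544 CPM and 395, 420.4 and 372 CPM, and not in total mRNA. The elongation factor Eef2 was higher in total mRNA (0.31) and lower in footprints (-0.34). The mRNAs of 4 of 20 aminoacyl-tRNA synthetases, 4 of 14 heat shock proteins and 4 of 19 ER chaperones were lower in replicate 2 (4, 3 and 7 with the trend removed), against 8.52% of all genes. In each of these lists 3 of the 4 calls were lost without the GFP libraries, those of Eprs, Aars and Vars, of Hsp90aa1, Dnaja1 and Hspd1, and of Hyou1, Pdia3 and Calr. Hsph1, an HSP110-type chaperone, had 426, 414 and 418 CPM of total mRNA in replicate 1 and 300.4, 298 and 314 CPM in replicate 2 (-0.46 ± 0.07; adjusted p = 0.000369), and was lower in footprints too (-0.51 ± 0.10).

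Lysosomal and autophagy genes were higher in replicate 2 in 12 of 23 cases in total mRNA (median 0.35) and 3 of 23 in footprints (median 0.27), against 6.42% and 2.64% of all genes. The count in total mRNA was 14 with the GC and length trend removed, 6 without the GFP libraries, 6 without the hTDP-43 libraries and 3 in DESeq2. Neu1, the lysosomal sialidase, had 47.0, 47.1 and 50.6 CPM of total mRNA in replicate 1 and 76.6, 79.7 and 82.9 CPM in replicate 2 (0.72 ± 0.12; adjusted p = 0.00079). Hexa, the alpha subunit of beta-hexosaminidase, was higher in both library types (0.35 ± 0.09 and 0.63 ± 0.13), as was the autophagy protein Wipi1 (0.43 ± 0.08 and 0.64 ± 0.14). The total mRNA call of Hexa was lost without the GFP libraries (adjusted p = 0.121) and the footprint call of Wipi1 without the hTDP-43 A315T libraries (0.0533). Sqstm1, the autophagy receptor p62, had 735, 650.3 and 794 CPM of total mRNA in replicate 1 and 946, 953 and 1036 CPM in replicate 2 (0.43 ± 0.07; adjusted p = 0.000514). The E-box TCACGTGA, the core of the element bound by the lysosomal regulator TFEB, was found in 2 of 10 called genes with a promoter window and in 4 of 8 that were not called, against 2.43% of tested genes.

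Stress and nutrient genes formed smaller groups. Of 27 genes of the integrated stress response and amino acid supply, 7 were higher in total mRNA and 5 of 25 in footprints, against 6.42% and 2.64% of all genes. Between 5 and 7 were higher in total mRNA and 2 or 3 in footprints when single constructs were left out. With the trend removed, 6 and 2 were higher. Gdf15, a secreted stress cytokine, had 66.8, 82.6 and 88.7 CPM of total mRNA in replicate 1 and 128, 142 and 127 CPM in replicate 2 (0.72 ± 0.11; adjusted p = 0.000314). Trib3, a target of ATF4 and CHOP, differed by 0.60 ± 0.09 (adjusted p = 0.000314), and the transcription factor Cebpb by 0.52 ± 0.10 (adjusted p = 0.00276). Footprints of all 3 were called as well, but those of Cebpb not without the hTDP-43 A315T libraries (adjusted p = 0.0801), those of Gdf15 not without the GFP (0.0947) or the hTDP-43 libraries (0.104) nor with the trend removed (0.135), and those of Trib3 in none of the fits that left out 1 construct (0.172, 0.0786 and 0.114) nor with the trend removed (0.151). Of 24 glycolysis and hypoxia genes, 8 were higher in total mRNA, 3 without the GFP libraries, and 7 with the trend removed, where 1 was lower. Slc2a3, the glucose transporter GLUT3, was higher in total mRNA (75.0, 71.5 and 88.0 against 129, 118 and 136 CPM; 0.70 ± 0.10) and in footprints (73.2, 63.0 and 67.0 against 125, 136 and 151 CPM; 1.00 ± 0.15). The prolyl hydroxylase Egln3 was higher in total mRNA by 0.72 ± 0.13 (adjusted p = 0.00119).

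Of 23 immediate-early and serum response genes, 8 were higher and 1 lower in total mRNA, against 6.42% and 8.52% of all genes. With the GC and length trend removed 4 were higher and 2 lower, and 2 were higher without the GFP libraries. Ier3, an early response gene, had 46.4, 34.3 and 43.3 CPM of total mRNA in replicate 1 and 81.8, 91.8 and 85.0 CPM in replicate 2 (1.05 ± 0.13; adjusted p = 0.0001), with a like difference in footprints (1.03 ± 0.19). Cholesterol genes were higher in 7 of 24 cases in total mRNA (8 with the trend removed). Without the GFP libraries and in DESeq2 none of them passed, although 9 were higher at an unadjusted p below 0.05 in edgeR with all libraries (1370 of 10277 over all genes). In footprints 0 of 23 passed in edgeR, where 7 were higher and 1 lower at an unadjusted p below 0.05 (842 and 736 of 8535 over all genes). Tm7sf2, a sterol reductase, had 6.82, 10.5 and 9.29 CPM of total mRNA in replicate 1 and 24.5, 15.8 and 23.5 CPM in replicate 2 (1.27 ± 0.26; adjusted p = 0.00343, and 0.0693 without the GFP libraries). By contrast, of 45 nuclear genes of the respiratory chain 0 were called in total mRNA by edgeR. There 7 were lower at an unadjusted p below 0.05, against 1621 of 10277 over all genes. With the trend removed 5 were called lower, against 8.01% of all genes. In footprints 1 was called (Ndufs7, -0.51 ± 0.13; adjusted p = 0.367 without the GFP libraries). The medians of that list were -0.01 and 0.08. Proteasome subunits had 1 higher and 1 lower of 30 in total mRNA.

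**Figure D4:**
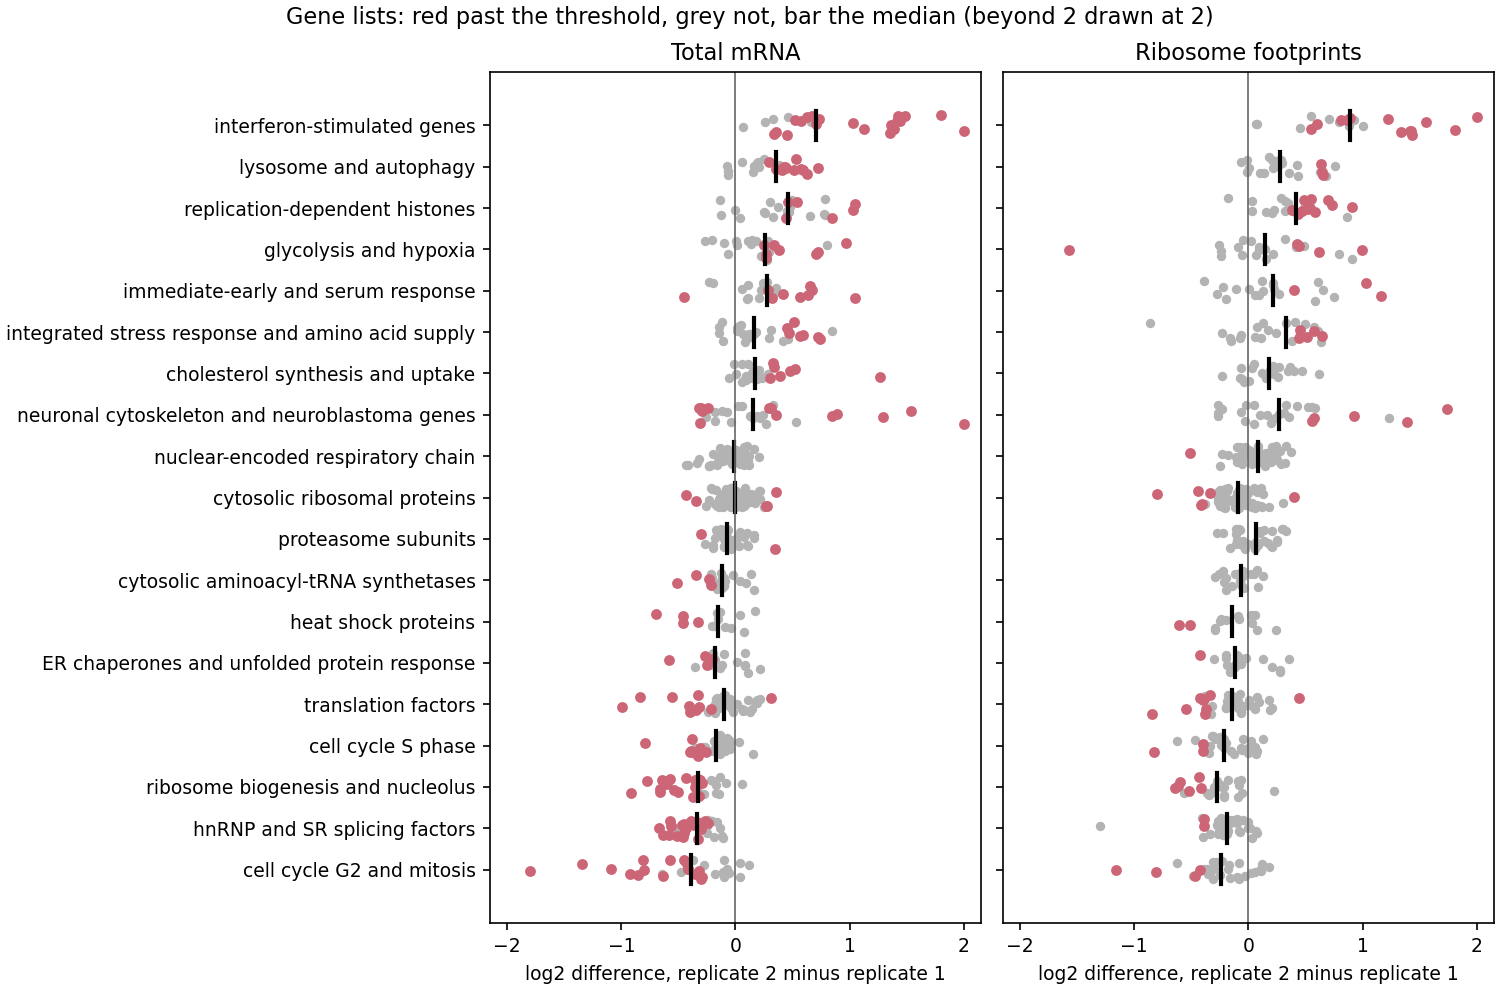
Each point is the log2 difference of 1 gene (horizontal axis, replicate 2 minus replicate 1) within a list of genes (rows), in total mRNA at left and footprints at right; red points passed the threshold, grey did not, and the bar is the list's median. Of the 19 lists drawn, interferon-stimulated genes have the highest medians (0.70 and 0.89), and G2 and mitosis genes the lowest in total mRNA (-0.39).

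Of the genes of the neuronal and neuroblastoma state, 8 of 29 were higher and 5 lower in total mRNA, and 5 of 27 were higher in footprints. Over all genes, 6.42% were higher and 8.52% lower in total mRNA, and 2.64% were higher in footprints. With the trend removed, 6 genes of the list were higher and 7 lower in total mRNA. There, 3 were higher and 0 lower without the GFP libraries, 5 and 2 without the hTDP-43 libraries, and 2 and 0 in DESeq2. In edgeR with all libraries 5 were lower at an unadjusted p below 0.05, against 1621 of 10277 over all genes. Th and Dbh, the first and the last enzyme of noradrenaline synthesis, are typical of neuroblastoma cells. Th had 6.82, 5.82 and 9.29 CPM of total mRNA in replicate 1 and 16.8, 27.1 and 22.5 CPM in replicate 2 (1.54 ± 0.26; adjusted p = 0.000993), and Dbh had 8.18, 11.1 and 6.88 and 18.1, 19.6 and 23.5 CPM (1.29 ± 0.26; adjusted p = 0.00323). Tubb2a, a neuronal beta-tubulin, differed by 0.89 ± 0.24 in total mRNA and 1.39 ± 0.30 in footprints. The receptor Ret, which transduces GDNF signals, had 687, 738 and 814 CPM of total mRNA in replicate 1 and 1055, 1039.5 and 1181 CPM in replicate 2 (0.55 ± 0.07; adjusted p = 4.81e-05), and 494, 555 and 534 against 779, 692 and 787 CPM of footprints. Of 9 motor neuron genes tested in total mRNA, Ret and the acetylcholinesterase gene Ache (0.92 ± 0.22) were the 2 called. The calcium channel gene Cacna1b was higher by 0.53 ± 0.16, and Trpm7 was lower, at -0.92 ± 0.14; of 14 genes of excitability 4 were higher and 1 lower. Without the GFP libraries Ache (adjusted p = 0.0932), Cacna1b (0.0911) and the footprints of Tubb2a (0.109) did not pass. Without the hTDP-43 libraries Ache (0.0722), Cacna1b (0.116) and Tubb2a in total mRNA (0.0745) did not pass, nor did Cacna1b (0.124) and Tubb2a (0.13) without the hTDP-43 A315T libraries. In the matrix list, Fn1, encoding fibronectin, stood out with 533, 548 and 584 CPM of total mRNA in replicate 1 and 254, 259.5 and 264 CPM in replicate 2 (-1.10 ± 0.07; adjusted p = 2.16e-08), and its footprints were at 696, 773 and 850.0 CPM and 298, 318 and 266 CPM (-1.39 ± 0.11; adjusted p = 9.05e-08).

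The largest differences in total mRNA among genes of at least 20 CPM on average belonged to several functions. Islr, an immunoglobulin superfamily protein with leucine-rich repeats, had 13.6, 12.2 and 15.8 CPM in replicate 1 and 59.4, 63.2 and 66.3 CPM in replicate 2 (2.16 ± 0.17; adjusted p = 3e-07), and a like difference in footprints (2.08 ± 0.25). Alox5, the lipoxygenase that starts leukotriene synthesis, had 7.50, 9.89 and 8.94 CPM in replicate 1 and 36.2, 42.9 and 32.6 CPM in replicate 2 (2.05 ± 0.21; adjusted p = 9.26e-06). Tex101 was apart in the same way (1.78 ± 0.15 in total mRNA, 1.77 ± 0.16 in footprints), and Oprd1, the delta opioid receptor, had 13.0, 12.2 and 11.0 against 36.6, 37.6 and 35.8 CPM. Camta1, a transcription activator, was higher in replicate 2 by 1.95 ± 0.23, but unevenly so, with 83.9, 27.8 and 96.3 CPM across the 3 constructs against 18.4, 19.2 and 17.2 CPM in replicate 1. Its footprints were at 30.1, 28.4 and 60.8 CPM and 99.4, 198 and 637 CPM. At the other end, the chromatin remodeller Atrx had 64.8, 57.0 and 35.8 CPM in replicate 1 and 21.9, 17.3 and 12.8 CPM in replicate 2 (-1.58 ± 0.17; adjusted p = 1.41e-05). The orphan receptor Gpr45 was lower (log2 difference -1.48 ± 0.12), as were the calpain-family gene Capn6, with -1.31 ± 0.11 in total mRNA and -1.07 ± 0.13 in footprints, and the nuclear pore protein Ranbp2, with -1.16 ± 0.12 and -0.59 ± 0.13 (adjusted p of the latter = 0.0901 without the hTDP-43 A315T libraries).

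Some of the largest differences appeared in footprints, while total mRNA differed by less, not past the threshold, or in the opposite direction. E2f5, an E2F-family repressor, had 57.0, 29.9 and 42.3 CPM of footprints in replicate 1 and 950.2, 2188 and 580.4 CPM in replicate 2 (4.55 ± 0.24; adjusted p = 3.37e-10). Its total mRNA was at 20.5, 26.2 and 26.5 CPM and 44.3, 59.4 and 41.7 CPM (0.95 ± 0.17), and its translational efficiency differed by 3.54 ± 0.26 (adjusted p = 9.54e-12). The co-chaperone Bag5 had 40.9, 31.5 and 36.2 CPM of footprints in replicate 1 and 379, 875 and 594 CPM in replicate 2, with a total mRNA difference of 0.86 ± 0.17. Taf5l, a subunit of the PCAF histone acetylase complex, had 63.5, 64.6 and 60.0 CPM of footprints against 365, 767 and 378 CPM, while its total mRNA was at 108, 116 and 130.3 CPM and 121, 136 and 125 CPM (adjusted p = 0.551). Fam43a differed by 3.73 ± 0.19 in footprints and Stag3, a meiotic cohesin, by 2.91 ± 0.22, and neither was called in total mRNA. Ccdc88a, which encodes the actin-binding protein girdin, went in opposite directions, at 74.3, 58.3 and 90.8 against 180.3, 269 and 254 CPM of footprints and 44.3, 55.8 and 37.1 against 18.5, 21.1 and 29.4 CPM of total mRNA. Both were called (1.58 ± 0.15 and -0.94 ± 0.20), the latter not without the GFP libraries (adjusted p = 0.0726).

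A few footprint differences concern genes that did not pass the low-count filter in total mRNA. In footprints, Neurog2, Nkx2-2 and Pdlim2 had fewer reads than the filter's minimum of 10 in every library of replicate 1. They passed it only through replicate 2, where they were high, so their test values are not given. The proneural factor Neurog2 had 2, 2 and 7 footprint reads in replicate 1 and 79, 47 and 75 in replicate 2. The homeobox gene Nkx2-2 had 4, 0 and 2 reads and 32, 20 and 14 reads. Pdlim2, a PDZ-LIM protein, had 2, 0 and 3 reads in replicate 1 and 36, 22 and 34 in replicate 2. Its neighbour Sorbs3, whose annotated span on chromosome 14 lies 2786 bases away, went the other way, with 141, 66 and 461 footprint reads in replicate 1 and 9, 1 and 17 in replicate 2 (-3.77 ± 0.19; adjusted p = 3.14e-10). Total mRNA of Sorbs3 did not differ past the threshold (-0.32 ± 0.23; adjusted p = 0.38).

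Footprints that were lower in replicate 2 included those of Car9, a hypoxia-induced carbonic anhydrase. It had 169, 165 and 162 CPM in replicate 1 and 35.8, 24.7 and 106 CPM in replicate 2 (-1.57 ± 0.24; adjusted p = 0.000493), while its total mRNA was at 7.50, 5.82 and 8.94 CPM and 15.1, 9.78 and 14.4 CPM (adjusted p = 0.0628). Rnf214, a RING finger protein, had 271, 301 and 322 CPM against 105, 136 and 82.6 CPM of footprints, with total mRNA of -0.11 ± 0.16. Mid1ip1, a regulator of fatty acid synthesis also called Mig12, had 559, 531 and 1020.2 CPM of footprints in replicate 1 and 175, 312 and 634 CPM in replicate 2 (-1.03 ± 0.14; adjusted p = 0.000171). Its replicates overlapped, since the hTDP-43 A315T libraries were the highest in each. In D630039A03Rik and Sspo the hTDP-43 A315T library of replicate 2 was likewise the highest of its replicate, and the replicates were still apart (-3.36 ± 0.30 and -1.64 ± 0.19).

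**Figure D5:**
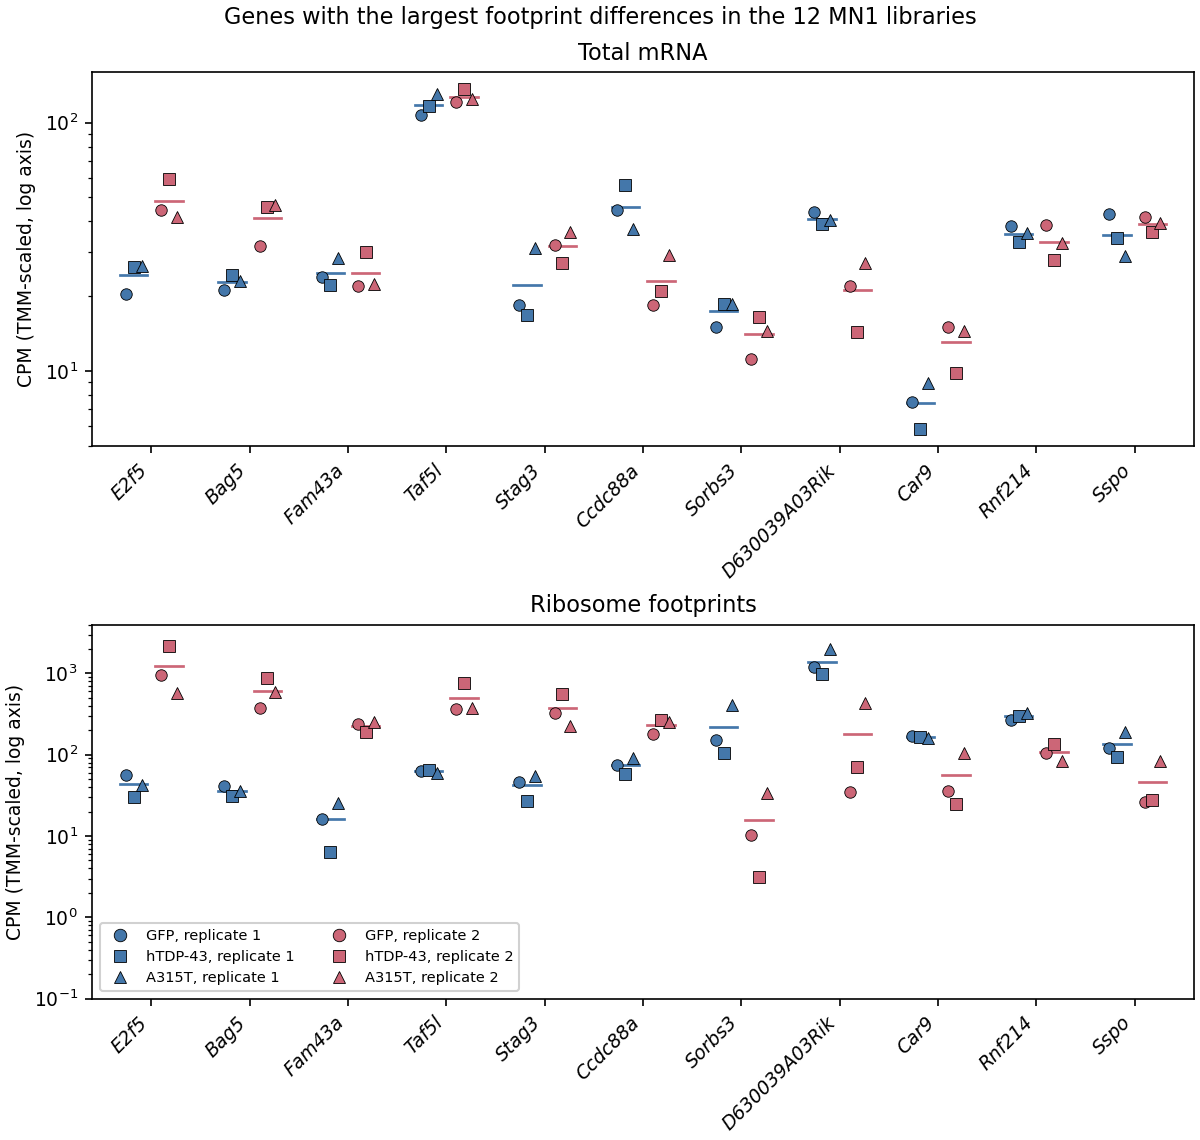
CPM of 11 genes with large footprint differences (vertical, log axis) in the 12 libraries, total mRNA above and footprints below; colours, symbols and bars are as in the plot of 13 genes by function. In footprints E2f5, Bag5, Fam43a, Taf5l, Stag3 and Ccdc88a are higher in replicate 2 and the other 5 lower, all without overlap, whereas in total mRNA Fam43a, Taf5l, Stag3, Sorbs3, Rnf214 and Sspo overlap.

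Translational efficiency was tested as the difference between library types in their replicate term, with each culture as a block. It was higher for 31 genes (0.304% of 10212 tested) and lower for 47 (0.46%). Removing the GC and length trend gave 38 (0.372%) and 47 (0.46%), and 64 genes were called both ways. Of the 31 that were higher, 12 were called lower in total mRNA alone, 11 higher in footprints alone, and 2 in both with opposite signs. Of the 47 that were lower, 27 were called lower in footprints alone, 8 higher in total mRNA alone, and 7 in both with opposite signs. The count of 78 was 39 without the GFP libraries and 210 without the hTDP-43 A315T libraries, and DESeq2 called 18. Among the genes that were higher, 29 of 31 had more footprint CPM than total mRNA CPM, with a median ratio of 2.64. Of the 47 that were lower, 26 did, with a median ratio of 1.43. Over all genes tested the median ratio was 0.98. The ratios come from the same libraries as the calls, so the choice of genes affects them and they are a description only. Ribosomal proteins had 3 lower of 68 (Rplp0, Rpl14 and Rpsa) and a median of -0.13, translation factors had 2 lower (Eef2 and Eef1a1), and of the splicing factors 0 were called by edgeR or DESeq2, with 2 higher and 0 lower at an unadjusted p below 0.05 in edgeR and a median of 0.14. When single constructs were left out, between 1 and 13 ribosomal proteins and between 0 and 2 translation factors were lower, and DESeq2 called 0 of either list lower, where edgeR with all libraries had 18 and 8 lower at an unadjusted p below 0.05. Over all 10212 genes, 476 were higher and 465 lower at that unadjusted level in edgeR.

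A few features took a large share of the reads and differed between replicates. Dact3, an antagonist of Wnt signalling, had 5175, 3721 and 6415 CPM of footprints in replicate 1 and 16409, 28735 and 31714 CPM in replicate 2 (2.30 ± 0.16; adjusted p = 2.1e-08), and 206, 279 and 319.8 against 628, 833 and 877 CPM of total mRNA (1.54 ± 0.07; adjusted p = 2.21e-10). Yipf1, a Golgi membrane protein, had 64936, 63926 and 89397 CPM and 16190.0, 18856 and 58113 CPM of footprints (-1.47 ± 0.17; adjusted p = 2.36e-05), with total mRNA of -0.18 ± 0.09. The gene models Gm37194 and Gm14236 differed in footprints by 3.22 ± 0.34 and -1.39 ± 0.10. The ribosomal RNA feature CT010467.1, on chromosome 17, had 9362, 13935 and 19648 CPM of total mRNA in replicate 1 and 22173, 20753 and 23154 CPM in replicate 2 (0.68 ± 0.12; adjusted p = 0.112 without the GFP libraries), and 3258, 4286 and 2807 against 10908, 15659 and 5349 CPM of footprints. Reads of small non-coding genes made up 1.38% to 2.82% of total mRNA libraries of replicate 1 and 3.12% to 3.49% of those of replicate 2, and 1.07% to 1.38% against 1.61% to 2.25% of footprint libraries.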

How the data were processed

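The deposited values are raw read counts per gene, 1 table per library. According to the methods, the authors clipped adapters with cutadapt 1.8.1, filtered out non-coding RNA with Bowtie2, and mapped what remained with TopHat2 on GRCm38. Per the file headers, reads on exons were counted with featureCounts 1.4.4, with no strand option set. Counts were not normalised and replicates were not pooled. Overlapping genes and near-identical copies can therefore share or lose reads, and footprint counts include reads on UTRs.

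Of the 45513 genes listed, 44585 were named and 21501 were protein-coding by GENCODE M21, and 36613 had the same span there. Counts were filtered with filterByExpr (minimum count 10, minimum total 15), scaled by TMM and fitted in edgeR 4.0.16 (R 4.3.3) with replicate and construct as terms, separately for total mRNA and footprints. P-values of the quasi-likelihood test were adjusted over all genes tested. Standard errors were the log2 difference over the square root of F. Translational efficiency was the interaction of library type and replicate, with culture as a block. The 2 libraries of a culture were paired by their labels, and their log2 differences between replicates correlated with r of 0.29, 0.17 and 0.31 for GFP, hTDP-43 and hTDP-43 A315T, against 0.17 to 0.32 between different constructs. The replicate number was kept as a block for the constructs, since the labels tie it to a date and the differences of any pair of constructs correlated with r of 0.26 to 0.62. Variance shares used log2 CPM with a prior count of 2. The study used DESeq, in whose place DESeq2 1.42.0 was run as an alternative. The other alternatives were RLE scaling, no filter, protein-coding genes alone, each construct left out, no construct term, and a loess trend (span 0.5) on GC content and exon length removed, which was chosen after seeing the data. The scripts were tested on simulated counts.

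The genes named were the 10 highest and 10 lowest called protein-coding genes with at least 20 CPM and 1 direction with all constructs (6 for translational efficiency), up to 4 called members of each list, Tardbp, and genes over 1% of a library. Further list members were named after their values were seen, and a few genes are not reported here. The comparison, the lists and the rule were chosen with earlier results of these data known. Each group had 1 culture per replicate, so p-values measure the spread between these cultures only, and detection floors cover counting error only.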

Additional observations from a re-analysis of the deposited data

How the results depend on the processing

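RLE scaling, protein-coding genes alone and the removed GC and length trend kept all counts of calls between replicates within 1.5 times (1536 in total mRNA, 404 in footprints, 78 in translational efficiency), and no called difference of a named gene changed sign under any alternative. DESeq2 called 246, 62 and 18, and 14 and 15 genes for the construct (96 and 35 in edgeR). Without a construct term 551 genes were called in total mRNA, 276 higher and 275 lower (660 and 876 with it). When single constructs were left out, calls ranged from 391 to 2145 in total mRNA, 263 to 393 in footprints, 39 to 210 in translational efficiency, and, for the construct, 47 to 283 in total mRNA and 13 to 54 in footprints. The share of variance by replicate number then ranged from 46.2% to 61.9% in total mRNA (40.9% with all) and from 48.1% to 50.8% in footprints (36.9% with all). Leaving out a construct takes degrees of freedom from construct and residual but not from the replicate. That alone raises the replicate's share, so these shares are not comparable with those from all libraries. For genes of at least 50 CPM the share in footprints was 49.4%. Without the low-count filter 365 and 85 genes were called for the construct, and 21 in footprints among protein-coding genes alone. The causes of the other changes were not tested. Without the replicate block the construct gave 2 and 0 calls (139 of 8535 in footprints at an unadjusted p below 0.05 in edgeR), and translational efficiency unpaired gave 77, 70 of them shared. Footprint depth of 332370 to 1219222 reads limits what could be detected there.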

Other observations

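Smaller gene groups differed in few members, and over all genes 6.42% were higher and 8.52% lower in total mRNA. Of 18 genes of the oxidative stress response, 3 were higher and 1 lower in total mRNA, among them the ferritin light chain Ftl1 at 256, 251 and 256 CPM in replicate 1 and 311, 369 and 311 CPM in replicate 2. Of 11 metal transport genes, 1 was higher and 3 lower, with the transferrin receptor Tfrc at 244, 209 and 173 CPM and 173, 131 and 143 CPM. Of 14 targets of YAP and TGF-beta, 3 were higher and 1 lower, and of 13 genes of Notch and Wnt signalling 2 were higher, Notch2 (adjusted p = 0.132 without the GFP libraries) and Jag2 (0.0823). Of 9 mitochondrially encoded genes, mt-Nd1 (0.0594) and mt-Cytb (0.0592) were lower in total mRNA. These last 4 calls were lost without the hTDP-43 libraries as well, as was that of Ftl1 (0.0548), and those of Tfrc (0.132) and Jag2 (0.155) with the GC and length trend removed.

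Some short non-coding genes had large differences. Those given here were chosen after their values were seen, so they do not describe such genes as a class. Of the genes annotated as snRNA, 5 were called higher and 1 lower in footprints. Over all genes, 2.64% were higher and 2.1% lower there. The number of snRNA genes tested is not given here, so the count cannot be set against these shares. The snRNA locus Gm25313 had 331, 112 and 88 footprint reads in replicate 1 and 1996, 431 and 309 in replicate 2 (log2 difference 2.84, adjusted p = 5.03e-12 in edgeR), and 10, 18 and 27 against 120, 72 and 54 reads in total mRNA. Gm23143 and Gm23287, also annotated as snRNA, differed by 2.12 and 2.87 in footprints, and Gm25732, annotated as miRNA, had 117, 200 and 450 total mRNA reads against 2430, 1541 and 1172 (log2 difference 2.91, adjusted p = 2.16e-08). Copies of such genes share reads, and the filter against non-coding RNA acted before counting, so these values are uncertain.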
